A study of Arabidopsis thaliana with 24 samples.

Results

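Heat shock transcription factors (HSFs), heat shock proteins (HSPs) and a pair of DREB2 factors of Arabidopsis thaliana were followed across 24 RNA-seq libraries of root tips. The gene list held 45 locus identifiers, drawn up by gene family, and 43 of them had a row in the deposited table of 20450 genes. In the table were 12 of 14 class A HSFs, 6 class B and C HSFs, 14 small HSPs, 5 cytosolic HSP70s, 3 cytosolic HSP90s, HSP101, DREB2A and DREB2C. HSFA6A and HSFA7B had no row and were not analysed here.

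The study asked how wild-type (Col-0) and *stop1* roots respond to stresses of acid soils, STOP1 being a zinc finger transcription factor needed for growth in acid and aluminum-containing media. The *stop1* plants are of 1 mutant line in the Col-0 background. Seedlings of both genotypes were grown for 5 days after germination and then kept for 16 h in liquid medium of 1 of 6 kinds, with 2 replicates per genotype and medium. Phosphate (Pi) was 1 mM in the control medium, +Pi_pH6, and in +Pi_pH5, and 0 mM in -Pi_pH6 and -Pi_pH5, the names giving the pH. The +Al medium was -Pi_pH5 with AlCl3, given as 100 µM in the sample labels and with another concentration in the methods of the study. The ++Fe medium held 0.1 mM Pi and 0.1 mM added FeSO4 at pH 5. Thus +Al differs from -Pi_pH5 by AlCl3, whereas ++Fe differs from it by both iron and Pi. Levels are given as CPM, the reads of a gene scaled to a common library total with the authors' TMM factors, and changes are differences in log2(CPM + 1), which understate the change of genes with low levels.

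HSFs bind heat shock elements, inverted repeats of the unit GAA and its complement TTC, in the promoters of chaperone genes. In Arabidopsis the HSFA1 factors are held inactive until unfolded proteins accumulate, and they then switch on further factors such as HSFA2, HSFA7A and DREB2A as well as the HSP genes. DREB2A and DREB2C activate HSFA3, which in turn activates HSP genes, and most class B HSFs act as repressors. Small HSPs hold unfolding proteins in a soluble state, HSP101 pulls them out of aggregates together with small HSPs and HSP70, and HSP70 and HSP90 fold them. Most small HSP genes are nearly silent in unstressed vegetative tissue.

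A perfect element of 3 units, a strict form of the heat shock element, was looked for near the start of each gene. The letters searched were GAANNTTCNNGAA on both strands, in a window from 250 bases before to 50 bases after the annotated gene start in RefSeq TAIR10.1. The element was in the window of 7 of 43 members (16.3%) and in 111 of the 20413 genes of the table that have such a window (0.544%). By role these were 2 of 12 class A HSFs, 2 of 14 small HSPs, 2 of 5 cytosolic HSP70s and 1 of 2 DREB2 genes. No class B or C HSF, no cytosolic HSP90 and not HSP101 had it. The 7 elements follow, on the strand of the gene, 5′ to 3′, with up to 8 bases on each side and the units in capitals.
HSFA2: ttagtaacGAAgtTTCtgGAAcattgtct
HSFA7A: aaaaccgtTTCcaGAAgtTTCtaatttct
HSP17.4: agaaacctGAAatTTCaaGAAacttgcag
AT1G53540: caacaccaGAAacTTCttGAAagcacctg
HSP70: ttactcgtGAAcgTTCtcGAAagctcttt
HSP70-3: atcgaaccGAAcaTTCtcGAAcctt
DREB2A: cagcgtgtTTCgaGAAgaTTCgggaggac
In HSFA2 (plus strand, chr2:11135528-11135556) the first base of the element is at -88 from the gene start. In HSFA7A (plus strand, chr3:19264991-19265019) it is at -142, and the window holds 2 matches, which do not overlap. In HSP17.4 (minus strand, chr3:16984865-16984893) it is at -18, again with 2 matches in the window, which do not overlap. In AT1G53540 (plus strand, chr1:19980238-19980266) it is at -53, and in DREB2A (plus strand, chr5:1602033-1602061) at -164. In HSP70 (AT3G12580, minus strand, chr3:3993846-3993874) and HSP70-3 (minus strand, chr3:2905898-2905922) it lies 20 and 33 bases after the annotated start. The shorter pairs were more widespread, GAANNTTC being in the window of 13 members (30.2%) against 11.4% of all genes, and TTCNNGAA likewise in 13 members against 9.1%; each is contained in the 3-unit element. The DREB-binding core, searched as ACCGAC or GCCGAC on both strands, was in 7 members (16.3%) against 9.59% of all genes. A match is a description of the letters and not of binding, and the lack of a match does not show a lack of binding.

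Reads on genes ran from 17027929 to 30516150 per library, so that 1 read corresponded to between 0.0326 and 0.0572 CPM. STOP1 was at 108 to 177 CPM in the wild-type libraries and at 28.8 to 57.8 CPM in the *stop1* libraries, without overlap. All 7 root marker genes were above 0 in every library, with a sum of 225 to 333 CPM, and the sum of 6 genes of green tissue ran from 8.13 to 676 CPM. For *stop1* in +Pi_pH6 and +Pi_pH5, the gene lists in the supplement of the study match the values of the other medium's libraries, so that these labels may be exchanged. The labels were kept, and the comparisons were also run with both exchanged. The replicates are called independent biological replicates by the study, and no batch or date is given.

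In 4 conditions 1 library stood apart from its replicate in the small HSPs. The summed level of the 14 small HSP genes was 22.5 CPM in replicate 1 and 242.7 CPM in replicate 2 of wild-type +Al. In *stop1* -Pi_pH5 it was 22.6 CPM in replicate 1 and 214 CPM in replicate 2. In *stop1* +Al the sums were 45.1 and 121 CPM, and in *stop1* ++Fe replicate 1 held 194 CPM and replicate 2 held 62.1 CPM. The replicate with the higher sum was the second in the first 3 of these conditions and the first in ++Fe. Wild-type -Pi_pH5 showed a smaller gap in the same genes, with 17.7 and 45.4 CPM, and all other libraries lay between 15.2 and 43.7 CPM. These 4 libraries were singled out by the small HSPs themselves, so that what follows on them describes the genes and tests nothing. In bulk root tip RNA, a change in the number of cells of a type and a change in RNA per cell cannot be told apart.

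**Figure D1:**
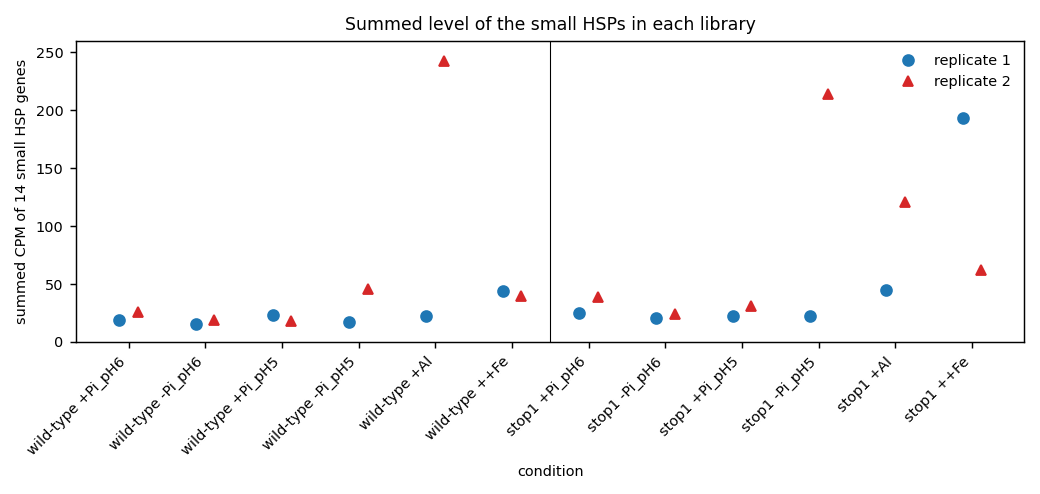
Summed level of the 14 small HSP genes (CPM, vertical axis from 0) in each of the 12 conditions, with replicate 1 as circles and replicate 2 as triangles. In wild-type +Al (22.5 and 242.7 CPM), stop1 -Pi_pH5, stop1 +Al and stop1 ++Fe the 2 replicates lie far apart.

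The gaps were wide in most cytosolic small HSPs. They were smaller in AT1G59860, at 0.892 and 3.91 CPM in wild-type +Al and 2.25 and 6.51 CPM in *stop1* -Pi_pH5. In *stop1* +Al this gene was at 2.25 and 3.15 CPM and in *stop1* ++Fe at 6.19 and 1.63 CPM. AT2G29500 was high in both libraries of *stop1* +Al (23.4 and 37.4 CPM) and of *stop1* ++Fe (55.8 and 43.1 CPM). HSP17.6A was at 0.335 and 26.1 CPM in the 2 wild-type +Al libraries, at 0.0957 and 30.2 CPM in those of *stop1* -Pi_pH5, at 0.964 and 9.37 CPM in *stop1* +Al and at 10.1 and 0.224 CPM in *stop1* ++Fe. HSP17.4, which carries the 3-unit element, was at 0.557 and 26.4 CPM in wild-type +Al, at 0.718 and 23.4 CPM in *stop1* -Pi_pH5, at 1.79 and 9.12 CPM in *stop1* +Al and at 20.4 and 1.29 CPM in *stop1* ++Fe. Both genes were thus at or under 1.79 CPM in 1 library of each condition and at or above 9.12 CPM in the other. AT1G53540, the second small HSP with the element, was at 0.446 and 19.9 CPM in wild-type +Al, at 0.766 and 21.4 CPM in *stop1* -Pi_pH5, at 0.734 and 7.96 CPM in *stop1* +Al and at 20.7 and 0.616 CPM in *stop1* ++Fe. HSP17.6II was at 0.0557 and 17.3 CPM in wild-type +Al, at 0 and 15.8 CPM in *stop1* -Pi_pH5, at 0.505 and 7.18 CPM in *stop1* +Al and at 10.9 and 0.056 CPM in *stop1* ++Fe. No 3-unit match was in the window of HSP17.6A or HSP17.6II, and a link between the element and the gaps was not tested. The order of the 4 high libraries was not the same from gene to gene.

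Of the small HSPs of organelles, HSP23.6 and HSP22.0 were over 2-fold higher in the same library of all 4 pairs on the log2(CPM + 1) scale. The others showed gaps in some of the pairs or stayed low. HSP23.6, a mitochondrial protein, was at 0 and 14.6 CPM in wild-type +Al, at 0 and 12.2 CPM in *stop1* -Pi_pH5, at 0.184 and 5.73 CPM in *stop1* +Al and at 3.27 and 0 CPM in *stop1* ++Fe. HSP22.0 of the endoplasmic reticulum was at 0.112 and 9.26 CPM in wild-type +Al and at 0 and 8.87 CPM in *stop1* -Pi_pH5. It was at 0.138 and 2.43 CPM in *stop1* +Al and at 5.92 and 0.056 CPM in *stop1* ++Fe. HSP21, the chloroplast small HSP, was at 0 and 6.97 CPM in wild-type +Al, at 0 and 4.62 CPM in *stop1* -Pi_pH5, at 0 and 2.67 CPM in *stop1* +Al and at 0.697 and 0 CPM in *stop1* ++Fe. In the ++Fe pair HSP21 was therefore low in both libraries. AT1G52560, a mitochondrial small HSP, was at 0.167 and 7.46 CPM in wild-type +Al and at 0.383 and 5.59 CPM in *stop1* -Pi_pH5. In *stop1* +Al it was at 0.551 and 2.48 CPM and in *stop1* ++Fe at 1.09 and 0.392 CPM. This gene too was higher in the library with the higher small HSP sum. AT5G51440, also mitochondrial, had the highest resting level of the organelle group, 11.5 CPM in replicate 1 of wild-type +Al, and 35.2 CPM in replicate 2. In the high libraries of *stop1* -Pi_pH5, +Al and ++Fe AT5G51440 was at 18.4, 14.9 and 13.3 CPM, within its range of 6.59 to 19.03 CPM in the 20 other libraries. The peroxisomal AT5G37670 stayed at or under 2.52 CPM in every library.

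On the log2(CPM + 1) scale, replicate 2 of wild-type +Al was over 4-fold above replicate 1 for 12 of 43 members, 11 of them small HSPs, against 44 of all 20450 genes (0.215%). In *stop1* -Pi_pH5 replicate 2 was over 4-fold higher for 11 members, all small HSPs, against 25 of all genes (0.122%). In *stop1* +Al it was so for 4 members, all small HSPs, of 20 genes (0.0978%), and in *stop1* ++Fe replicate 1 was over 4-fold higher for 9 members, 8 of them small HSPs, of 19 genes (0.0929%). The median of the small HSPs for replicate 2 over replicate 1 was 3.03 in wild-type +Al, 2.89 in *stop1* -Pi_pH5, 1.66 in *stop1* +Al and -2.27 in *stop1* ++Fe, and the medians of all genes lay between -0.03 and 0. With values under 3 reads raised to 3 reads these medians of the small HSPs were 2.97, 2.72, 1.64 and -2.16 in the same order. In wild-type -Pi_pH5, 1 member, HSP23.6, passed 4-fold with 0 and 5.29 CPM, of 0.0929% of all genes. In the other 7 conditions no member differed by over 4-fold in either direction, where 0.323% (wild-type +Pi_pH6), 0.152% (wild-type -Pi_pH6), 0.46% (wild-type +Pi_pH5), 0.137% (wild-type ++Fe), 0.24% (*stop1* +Pi_pH6), 0.0587% (*stop1* -Pi_pH6) and 0.2% (*stop1* +Pi_pH5) of all genes did.

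**Figure D2:**
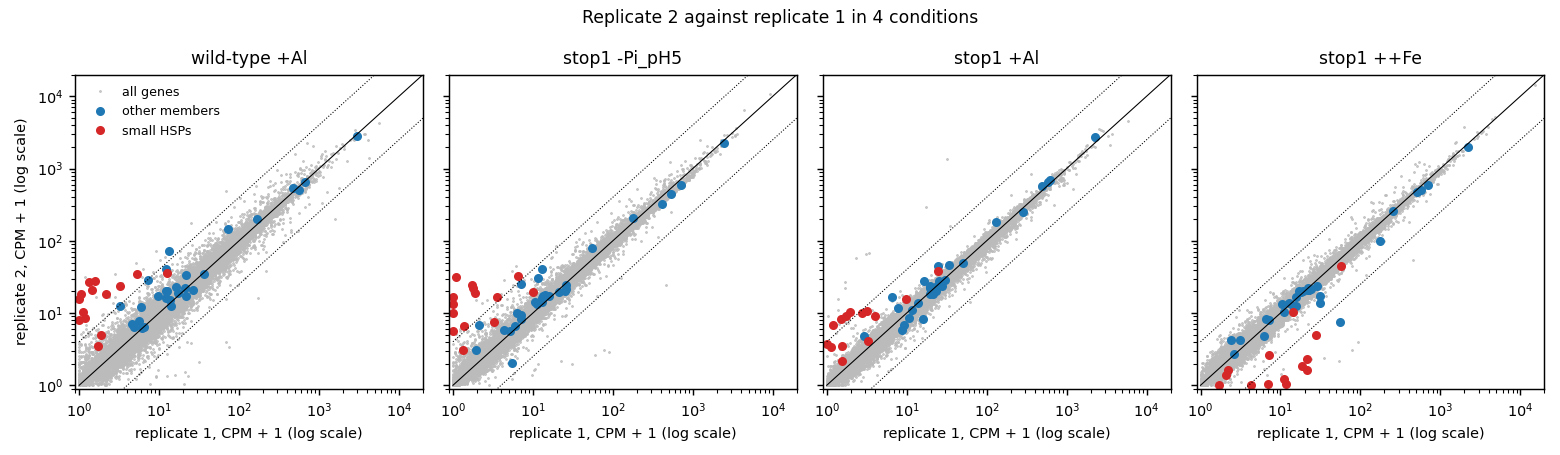
CPM + 1 of replicate 2 against replicate 1, both on log scales, in the 4 conditions, with all genes in grey, small HSPs in red and the other members in blue; the solid line marks equal values and the dotted lines 4-fold differences. In wild-type +Al 11 small HSPs lie beyond 4-fold and in stop1 -Pi_pH5 also 11, while most genes lie near the solid line.

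On the log2(CPM + 1) scale, 9 genes of the whole table were more than 2-fold higher in the same library of all 4 pairs. All 9 were members, namely HSP17.6II, HSP17.6A, AT1G53540, HSP23.6, HSP17.4, AT1G07400, HSP22.0, HSP18.2 and HSP70B. Past 4-fold on that scale in all 4 pairs were 4 genes, HSP17.6II, HSP17.6A, AT1G53540 and HSP23.6. The scale understates differences of genes with low levels, inside and outside the list. By CPM alone further genes pass, among them HSP17.4 at 4-fold. The table kept genes with a CPM over 1, before TMM scaling, in at least 2 libraries. In the 20 other libraries alone 169 genes (0.826%) would not have met this. Among them were 5 small HSPs, HSP17.6II, HSP23.6, HSP22.0, HSP21 and AT5G37670, which are in the table only through the libraries that stand apart. HSP17.6II, HSP23.6 and HSP22.0 are among the genes listed above, and the preceding counts past 4-fold also include genes kept in this way. Those counts thus follow in part from the filter. Genes that were low throughout are not in the table and could not be compared. The sums of green tissue markers in these pairs were 217 and 26.8 CPM in wild-type +Al, 8.14 and 17.64 CPM in *stop1* -Pi_pH5, 10.8 and 14.6 CPM in *stop1* +Al, and 47.6 and 43 CPM in *stop1* ++Fe. Their part in the gap was not tested.

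Beyond the small HSPs, a few larger chaperones were high in the same libraries. HSP70B, a heat-inducible cytosolic HSP70, was at 6.36 and 27.6 CPM in wild-type +Al, at 6.18 and 23.9 CPM in *stop1* -Pi_pH5, at 5.55 and 15.6 CPM in *stop1* +Al and at 54.2 and 6.44 CPM in *stop1* ++Fe. In the other 20 libraries HSP70B stayed between 4.56 and 7.66 CPM. HSP90.1, the heat-inducible HSP90, was at 12.4 and 70.1 CPM in wild-type +Al, at 11.9 and 39.7 CPM in *stop1* -Pi_pH5, at 23.4 and 43.9 CPM in *stop1* +Al and at 30.5 and 16.1 CPM in *stop1* ++Fe. HSP101, the disaggregase, was at 11.1 and 40.1 CPM in wild-type +Al, at 10.5 and 29.9 CPM in *stop1* -Pi_pH5, at 15.7 and 26.4 CPM in *stop1* +Al and at 29.8 and 12.6 CPM in *stop1* ++Fe. All 3 chaperones were higher in the library with the higher small HSP sum, and so was HSP70. The other HSP70s and HSP90s did not share this in every pair. In *stop1* -Pi_pH5, HSC70-1 (2426 and 2222 CPM), HSP70-2, HSP70-3, HSP81-2 and HSP81-3 were lower in that library. In wild-type +Al all of these but HSP70-3 were lower in it. In *stop1* +Al only HSP70-2 was lower in it, and in *stop1* ++Fe none was. HSFA2 was at 2.23 and 11.5 CPM in wild-type +Al, at 1.15 and 5.77 CPM in *stop1* -Pi_pH5 and at 1.93 and 3.83 CPM in *stop1* +Al, but at 1.66 and 1.68 CPM in *stop1* ++Fe, where its libraries were alike. Of the 4 high libraries only that of wild-type +Al lay above the range of HSFA2 in the 20 other libraries, 0.452 to 7.03 CPM.

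**Figure D3:**
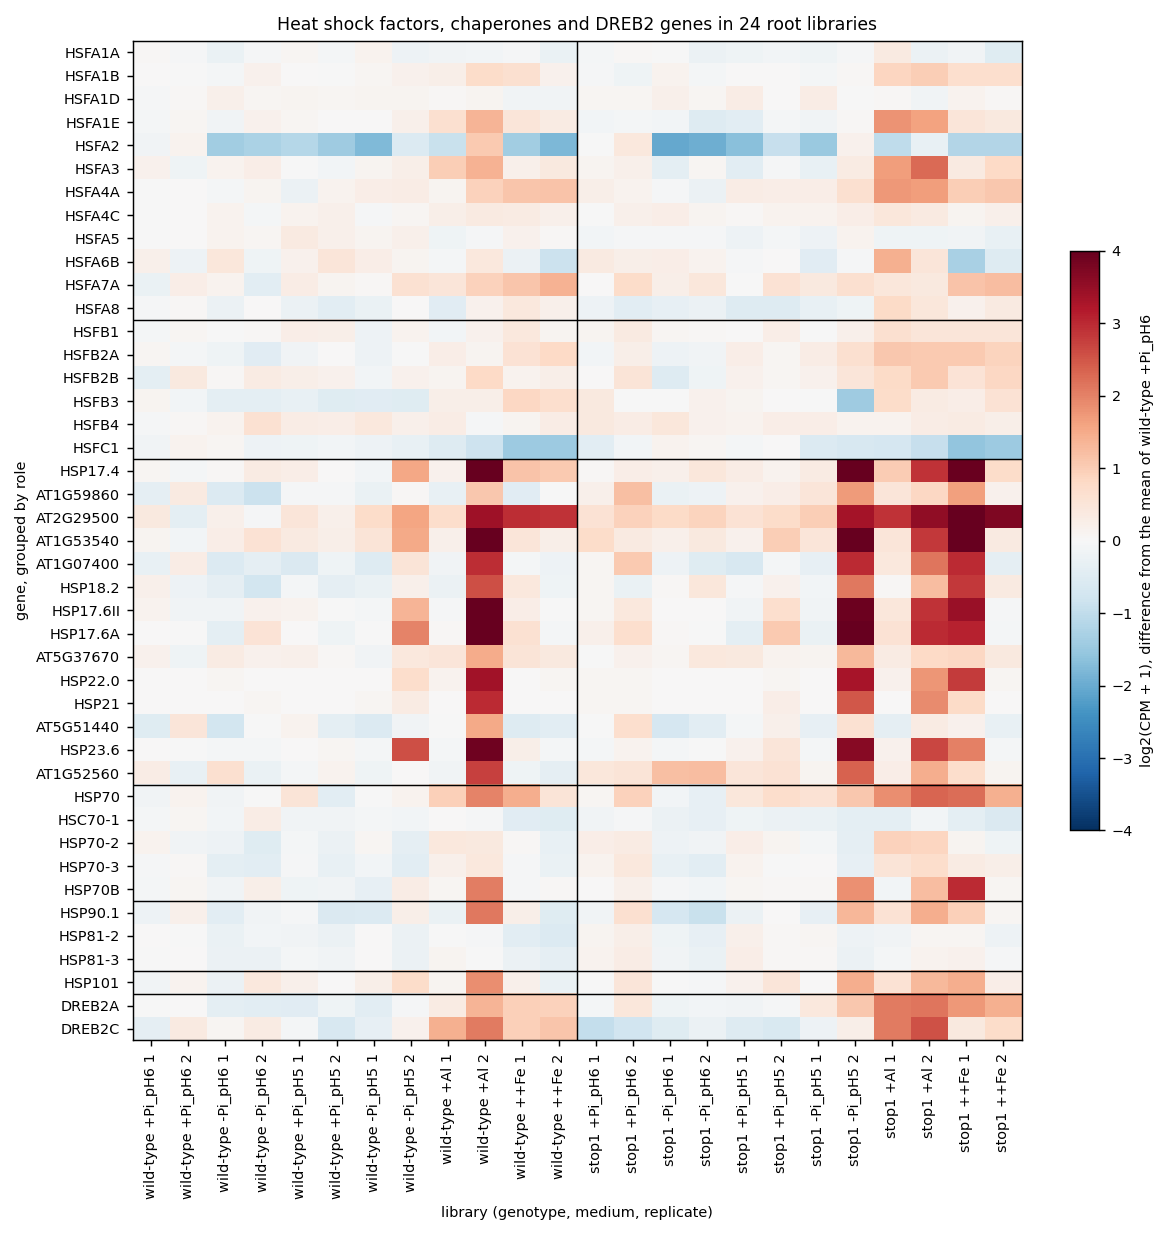
Level of the 43 members (rows, grouped by role) in the 24 libraries (columns), as log2(CPM + 1) minus the mean of the 2 wild-type +Pi_pH6 libraries; red is higher, blue lower, and colours saturate at 4 in either direction. The small HSP block is red in wild-type +Al 2, stop1 -Pi_pH5 2, stop1 +Al 2 and stop1 ++Fe 1, whereas DREB2A, DREB2C, HSFA1E and HSFA4A are red in both stop1 +Al libraries.

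Comparisons between conditions were fitted with limma across all 24 libraries, with Benjamini-Hochberg adjustment over 20450 genes and calls at an adjusted p under 0.05. Of the 43 members, 21 were called in at least 1 of 22 comparisons and 22 in none. The share of all genes called in at least 1 comparison was not computed. In *stop1* +Al against the control alone it was 37.5%, so the count is not read as a trait of the list. The members called in none were HSFA1A, HSFA1D, HSFA4C, HSFA5, HSFB4, HSP70B, HSP90.1, HSP81-3, HSP101 and 13 of 14 small HSPs. Since the replicates of the small HSPs lie so far apart, their standard errors in the fit were large, 1.40 for HSP17.6A and 1.20 for HSP17.4 on the log2 scale. A call missed by these genes therefore does not show that they did not differ.

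Exposure of the wild-type to +Al, set against the control medium, was followed by higher levels of HSFA1E, HSFA3, DREB2C and HSP70 and a lower level of HSFC1. These were 5 of 43 members, 4 higher and 1 lower, where 8.46% of all genes were called. The median change of the members was 0.70 on the log2 scale and that of all genes 0.01. DREB2C, the factor upstream of HSFA3, was at 5.3 and 9.26 CPM in the control and at 20.5 and 33 CPM in +Al. Its libraries did not overlap, and it rose by 1.75 ± 0.27 (SE, n = 2 libraries per condition, limma adjusted p = 0.00048). HSFA3 was at 1.73 and 1.12 CPM in the control and at 3.79 and 5.35 CPM in +Al, a rise of 1.20 ± 0.25 (limma adjusted p = 0.0057). HSFA1E, of the HSFA1 group of master activators, was at 6.43 and 7.38 CPM in the control and at 11.3 and 19.2 CPM in +Al, a rise of 1.00 ± 0.20 (limma adjusted p = 0.0042). In all 3 genes both +Al libraries exceeded both control libraries, and replicate 2 was the higher one.

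HSP70 (AT3G12580), the stress-inducible cytosolic HSP70 that carries the element shown above, was at 32.2 and 39.8 CPM in the wild-type control and at 71 and 146 CPM in +Al. It rose by 1.48 ± 0.39 (limma adjusted p = 0.023). HSFC1, the single class C factor, was at 33.3 and 40.3 CPM in the control and at 25.4 and 20.1 CPM in +Al, and fell by 0.68 on the log2 scale (SE 0.14, limma adjusted p = 0.0047). None of the 14 small HSPs was called by limma, whereas the likelihood ratio test of edgeR called 5, DESeq2 4, and the quasi-likelihood test of edgeR and limma with the replicate number as a block 1 each. By limma 2 of them, AT2G29500 and AT5G37670, had an unadjusted p under 0.05 (13 of all 43 members had). AT2G29500 was at 3.26 and 1.53 CPM in the control and at 4.29 and 33.4 CPM in +Al (2.04 ± 0.67, limma adjusted p = 0.072).

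The wild-type +Al count rested on which library was used. Without replicate 1 of +Al 16 members were called, 6 of them small HSPs, and without replicate 2 only DREB2C was, at 1.42 (limma adjusted p = 0.014). In these fits the remaining +Al library is assumed to vary like the libraries of the other conditions. Shares of all genes called are given only for the limma fit to all 24 libraries. The counts of members from other fits have none beside them and cannot be set against the rest of the table. Without replicate 2 of the control 2 members were called. With the 4 libraries that stand apart left out, an alternative added after the data were seen, HSFA3 (0.99, limma adjusted p = 0.048) and DREB2C (1.42, limma adjusted p = 0.023) were called.

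Against -Pi_pH5, which differs from +Al by AlCl3, 6 wild-type members were higher and none lower, where 4.0% of all genes were called. These were DREB2C (1.83 ± 0.27), DREB2A (1.07 ± 0.27), HSFA3 (1.02 ± 0.25), HSFA1E (0.89 ± 0.20), HSP70-3 (0.58 ± 0.15) and HSP70 (1.42 ± 0.39). Their limma adjusted p ran from 0.00064 for DREB2C to 0.05 for HSP70, which was just under the threshold before rounding. DREB2A, which regulates genes of drought and heat, was at 2.54 and 3.59 CPM in -Pi_pH5 and at 4.91 and 11.2 CPM in +Al. Both +Al libraries lay above both -Pi_pH5 libraries. Left-out libraries moved the count here too, to 16 without replicate 1 of +Al, to 1 without replicate 2 of +Al or of -Pi_pH5, and to 2 without replicate 1 of -Pi_pH5. DREB2C, at 1.50 without replicate 2 of +Al, was the gene that remained without that library and without the 4 libraries.

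In *stop1* roots +Al was followed by higher levels of both DREB2 genes, of several class A HSFs and of HSP70. Against the *stop1* control 12 members were higher and 1 lower, where 37.5% of all genes were called, and against *stop1* -Pi_pH5 14 were higher and none lower, where 31.0% of all genes were called. Counting only higher genes, 18.0% and 15.4% of all genes were called in these 2 comparisons. DREB2C was at 3.19 and 3.74 CPM in the *stop1* control, at 6.03 and 8.4 CPM in -Pi_pH5 and at 32.9 and 45.6 CPM in +Al. It rose by 3.16 ± 0.27 over the control (limma adjusted p = 1.4e-07) and by 2.29 ± 0.27 over -Pi_pH5 (limma adjusted p = 6.2e-06). DREB2A was at 3.47 and 5.44 CPM in the control, at 5.31 and 9.05 CPM in -Pi_pH5 and at 19 and 19.9 CPM in +Al, a rise of 1.93 ± 0.27 over the control (limma adjusted p = 2.9e-05). For both genes +Al stood clear of every other *stop1* library.

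**Figure D4:**
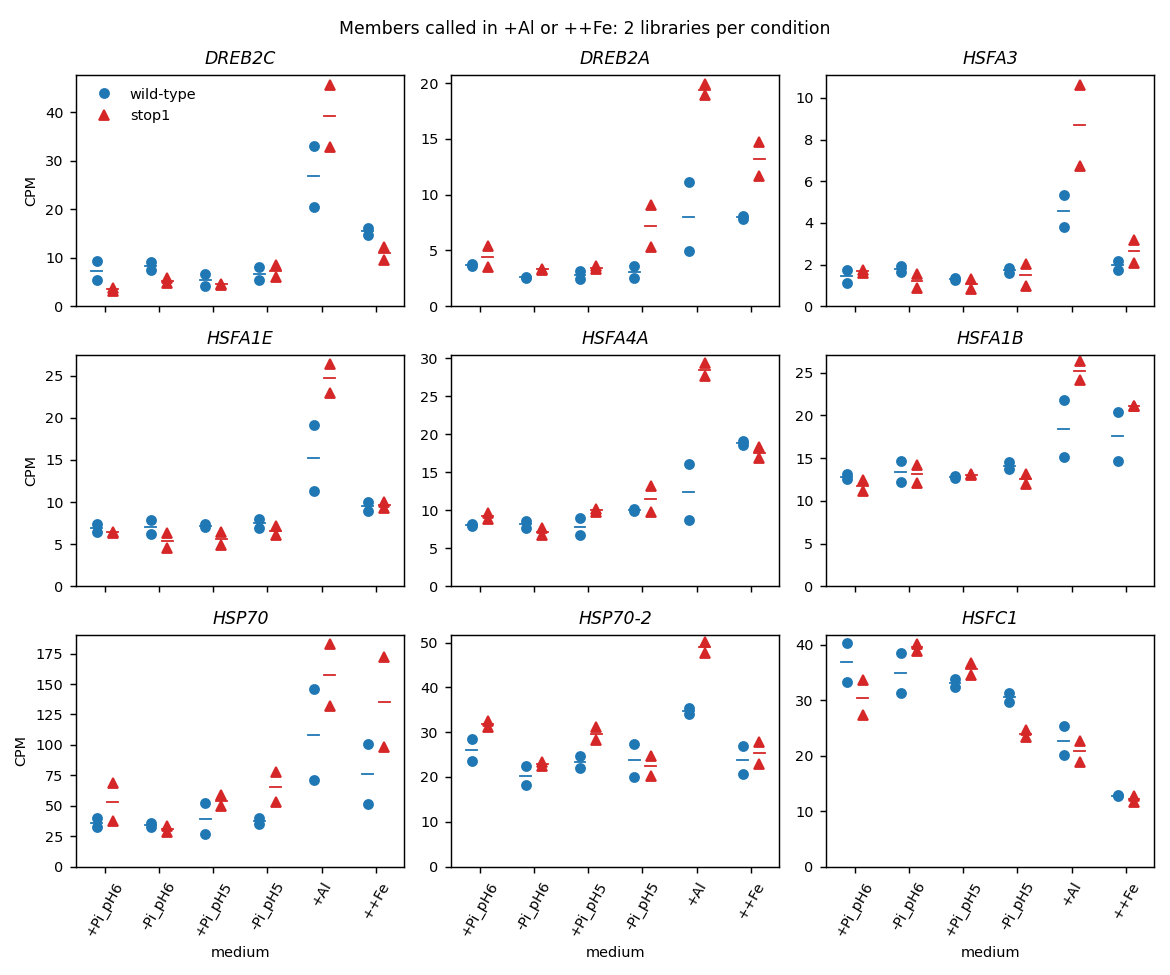
CPM (vertical axes from 0) of 9 members in the 6 media, with wild-type libraries as blue circles, stop1 libraries as red triangles and short lines for the means of 2 libraries. In stop1 +Al, DREB2A lies at 19 and 19.9 CPM and HSFA4A at 29.3 and 27.6 CPM, above the other stop1 media, while HSFC1 is lowest in ++Fe in both genotypes.

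Of the 12 class A factors measured, 5 rose over the control, HSFA1B, HSFA1E, HSFA3, HSFA4A and HSFA8, and these and HSFA6B rose over -Pi_pH5. HSFA1E was at 6.39 and 6.46 CPM in the *stop1* control, at 6.08 and 7.16 CPM in -Pi_pH5 and at 26.4 and 23 CPM in +Al, and rose by 1.79 ± 0.20 over the control (limma adjusted p = 2.8e-06). HSFA3 was at 1.6 and 1.74 CPM in the control and at 6.75 and 10.6 CPM in +Al, a rise of 1.83 ± 0.25 (limma adjusted p = 2.4e-05). HSFA4A, a factor linked to oxidative stress, was at 9.69 and 8.87 CPM in the control and at 29.3 and 27.6 CPM in +Al, a rise of 1.52 ± 0.20 (limma adjusted p = 1.4e-05). The +Al libraries of these 3 genes were above every other library of *stop1*. HSFA1B, a further master activator, rose from 12.4 and 11.2 CPM to 24.1 and 26.4 CPM (1.04 ± 0.16), and HSFA8 rose by 0.90 ± 0.19. Over -Pi_pH5, HSFA6B rose by 1.21 ± 0.32 with 15 and 7.38 CPM in the +Al libraries and 3.3 and 4.8 CPM in the others. That call was lost without replicate 1 of either condition (1.00 and 0.75, limma adjusted p = 0.083 and 0.15). HSFA1A and HSFA1D, of the same subgroup as HSFA1E, were not called in any comparison, with changes from -0.29 to 0.27 on the log2 scale.

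Of the class B and C factors, HSFB2A, a repressor, was at 9.75 and 12.6 CPM in the *stop1* control and at 23.2 and 22.7 CPM in +Al (0.98 ± 0.15, limma adjusted p = 8.4e-05). HSFB2B, its close relative, rose by 0.66 ± 0.25 (limma adjusted p = 0.049), a call lost without either +Al library or without replicate 1 of the control (0.41 to 0.80). HSFB3 rose by 1.25 ± 0.29 over -Pi_pH5, where its libraries were at 4.4 and 1.06 CPM, with 8.22 and 5.87 CPM in +Al. Without replicate 2 of *stop1* -Pi_pH5, 1 of the 4 libraries that stand apart, the difference of HSFB3 was 0.56 and was not called (limma adjusted p = 0.075). HSFB1, the most abundant HSF in the table per transcript length, rose by 0.46 ± 0.14 over -Pi_pH5, a call lost without replicate 1 of either condition. HSFC1 again fell against the control, by 0.53 on the log2 scale (SE 0.14, limma adjusted p = 0.0063), a call lost without replicate 2 of either condition.

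Among the chaperones in *stop1* +Al, HSP70 was at 37.8 and 68.4 CPM in the control and at 132 and 183 CPM in +Al, a rise of 1.59 ± 0.39 (limma adjusted p = 0.0037) that was not called without replicate 1 of the control (1.17, limma adjusted p = 0.067). HSP70-2, a neighbour of HSC70-1 on chromosome 5, was at 31.1 and 32.5 CPM in the control, at 24.7 and 20.2 CPM in -Pi_pH5 and at 50.1 and 47.7 CPM in +Al. It rose by 0.61 ± 0.16 over the control (limma adjusted p = 0.007) and further over -Pi_pH5 (SE 0.16, limma adjusted p = 5.8e-05). HSP70-3 rose by 0.77 ± 0.15 over -Pi_pH5, and since another gene overlaps it on the same strand its counts are uncertain. Without the 4 libraries that stand apart, the calls of HSP70-3 (0.50) and HSP70 (1.29) over -Pi_pH5 were lost. AT2G29500, a cytosolic small HSP, was at 3.85 and 5.23 CPM in the control and at 23.4 and 37.4 CPM in +Al, a rise of 2.48 ± 0.67 (limma adjusted p = 0.0075). The call was lost without replicate 2 of +Al (2.15, limma adjusted p = 0.067) or replicate 1 of the control (2.30, limma adjusted p = 0.053). It was the small HSP with a high level in both +Al libraries. With the 4 libraries left out, 13 members were called against the *stop1* control, 11 of them also called with all libraries, and 13 against -Pi_pH5, 12 of them also called with all libraries.

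Compared within +Al, 8 members were higher in *stop1* than in the wild-type and none was lower, where 20.1% of all genes were called and 11.2% were higher. HSFA4A was at 8.7 and 16.1 CPM in the wild-type and at 29.3 and 27.6 CPM in *stop1*, higher by 1.19 ± 0.20 (limma adjusted p = 0.00032). DREB2A was higher by 1.27 ± 0.27 (limma adjusted p = 0.0026), with 4.91 and 11.2 CPM in the wild-type and 19 and 19.9 CPM in *stop1*. HSFB2A, at 12.9 and 11.5 CPM in the wild-type, was higher by 0.86 ± 0.15. HSFA3 (0.78 ± 0.25), HSFA8 (0.73 ± 0.19), HSFA1E (0.70 ± 0.20), HSFB1 (0.53 ± 0.14) and HSP70-2 (0.48 ± 0.16) were the others. In all 8 genes the libraries of the genotypes did not overlap. DREB2C was not called, with a difference of 0.56 ± 0.27 (limma adjusted p = 0.18), nor was HSP70 (0.60 ± 0.39, limma adjusted p = 0.32). Without the 4 libraries 8 members were again called, 6 of them the same, and the differences of HSFA4A and DREB2A were 1.65 and 1.76. Without replicate 1 of wild-type +Al 3 members were called and without replicate 1 of *stop1* +Al 4. The call of HSP70-2 was lost with any 1 of the 4 libraries left out, and that of DREB2A without replicate 1 of wild-type +Al (0.75, limma adjusted p = 0.078).

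Whether the response to AlCl3 over -Pi_pH5 differed between genotypes was tested as an interaction. HSFA4A was called, its response being larger in *stop1* by 1.04 ± 0.28 (limma adjusted p = 0.035), where 6.67% of all genes were called. It was the 1 member of 43, and 7 members had an unadjusted p under 0.05. The differences of HSFA1E (0.86 ± 0.29), HSFA3 (0.94 ± 0.36), DREB2C (0.46 ± 0.39) and DREB2A (0.29 ± 0.39) did not pass. With single libraries left out, HSFA4A was called in 2 of 8 fits, without replicate 2 of wild-type +Al (1.45), where 4 members passed, and without replicate 2 of *stop1* -Pi_pH5 (1.24). In the other 6 fits its difference was 0.63 to 1.08 (limma adjusted p = 0.081 to 0.18). Another member passed in 3 of these 6, AT1G52560 without replicate 1 of wild-type +Al, HSFB3 without replicate 1 of *stop1* -Pi_pH5 and HSFA6B without replicate 2 of *stop1* +Al, and none in the other 3. Without the 4 libraries, wild-type +Al, *stop1* -Pi_pH5 and *stop1* +Al keep 1 library each. The differences were then 1.42 for HSFA1E, 1.69 for HSFA4A, 2.17 for HSFA6B, 1.37 for HSFA8 and 2.37 for AT2G29500. The libraries left out were singled out by the small HSPs, of which AT2G29500 is 1. Its difference therefore follows in part from that choice and tests nothing.

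In ++Fe, the members called in both genotypes were HSFC1, which fell, and HSFA4A, HSFB2A, AT2G29500, DREB2A and DREB2C, which rose. Against the control, wild-type ++Fe had 6 members higher and 4 lower, where 21.7% of all genes were called, and *stop1* ++Fe had 7 higher and 2 lower, where 14.8% of all genes were called. HSFC1 went from 33.3 and 40.3 CPM to 12.8 and 12.7 CPM in the wild-type and from 27.4 and 33.6 CPM to 11.7 and 12.7 CPM in *stop1*. It fell by 1.45 on the log2 scale (SE 0.14, limma adjusted p = 2.1e-06) in the wild-type and by 1.25 (SE 0.14, limma adjusted p = 1.1e-05) in *stop1*. The ++Fe libraries of HSFC1 lay below every library of the other media in both genotypes.

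HSFA4A rose in ++Fe from 7.96 and 8.14 CPM to 18.6 and 19.1 CPM in the wild-type (1.13 ± 0.20, limma adjusted p = 0.00063) and from 9.69 and 8.87 CPM to 16.9 and 18.3 CPM in *stop1* (0.85 ± 0.20, limma adjusted p = 0.0067). HSFA7A, which carries the 3-unit element, was at 6.07 and 9.41 CPM in the wild-type control and at 17.5 and 21.6 CPM in ++Fe (1.25 ± 0.28, limma adjusted p = 0.0036). In *stop1* HSFA7A was at 7.71 and 13.3 CPM in the control and at 18.1 and 19.1 CPM in ++Fe and was not called. HSFB2A rose by 0.68 ± 0.15 in the wild-type and by 0.90 ± 0.15 in *stop1*. The wild-type call of HSFB2A was lost without replicate 2 of the control (0.60) or replicate 2 of ++Fe (0.57). HSFA1B rose in *stop1* (0.79 ± 0.16) with 21.1 CPM in each ++Fe library, whereas the wild-type ++Fe libraries were at 20.4 and 14.7 CPM. HSFA6B fell in *stop1* by 1.20 on the log2 scale (SE 0.32, limma adjusted p = 0.015), to 1.39 and 3.19 CPM. The call was lost without replicate 1 of *stop1* ++Fe, which stands apart (-0.80). It was also lost without replicate 1 or replicate 2 of the control (-1.13 and -1.27). The *stop1* call of HSFA4A was lost without replicate 2 of ++Fe or of the control, and the wild-type call of HSFA7A without replicate 1 of the control (0.98, limma adjusted p = 0.053).

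DREB2A rose to 8.11 and 7.86 CPM in wild-type ++Fe (0.93 ± 0.27, limma adjusted p = 0.022) and to 14.7 and 11.7 CPM in *stop1* ++Fe (1.40 ± 0.27, limma adjusted p = 0.0017). DREB2C rose to 14.6 and 16.2 CPM (1.03 ± 0.27, limma adjusted p = 0.013) and to 9.45 and 12.3 CPM (1.40 ± 0.27, limma adjusted p = 0.0016). In both genotypes the ++Fe level of DREB2C lay below its +Al level and above its control level. HSP70 rose in *stop1* from 37.8 and 68.4 CPM to 172 and 98.4 CPM (1.34 ± 0.39, limma adjusted p = 0.026). Without replicate 1 of *stop1* ++Fe, 1 of the 4 libraries that stand apart, the difference of HSP70 was 0.94 and was not called (limma adjusted p = 0.25), nor was it without all 4 (limma adjusted p = 0.21) or without replicate 1 of the control (0.92, limma adjusted p = 0.28). AT2G29500 was at 24.6 and 23.5 CPM in wild-type ++Fe (2.93 ± 0.67, limma adjusted p = 0.0048) and at 55.8 and 43.1 CPM in *stop1* ++Fe (3.19 ± 0.67, limma adjusted p = 0.003). Unlike the other small HSPs it was high in both replicates of both ++Fe conditions. In the wild-type, HSC70-1 fell by 0.47 on the log2 scale (SE 0.16, limma adjusted p = 0.047) and HSP81-2 also by 0.47 (SE 0.14, limma adjusted p = 0.022). The wild-type ++Fe calls of DREB2A (0.90 to 0.96, limma adjusted p = 0.067 to 0.09) and HSC70-1 were lost with any 1 of the 4 libraries left out, and those of HSP81-2, DREB2C and AT2G29500 with 3, 2 and 1 of the 4.

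Against -Pi_pH5, wild-type ++Fe had 6 members higher and 1 lower (24.2% of all genes called) and *stop1* ++Fe 3 higher and 1 lower (10.9% of all genes called). HSFB3 rose by 1.22 ± 0.29 in the wild-type, with 8.71 and 7.86 CPM in ++Fe. In *stop1* it was called at 1.14 ± 0.29, with 5.58 and 7.28 CPM in ++Fe and 4.4 and 1.06 CPM in -Pi_pH5. That call rested on replicate 2 of *stop1* -Pi_pH5, without which the difference of HSFB3 was 0.45 (limma adjusted p = 0.29), and it was also lost without the 4 libraries (0.62, limma adjusted p = 0.2). HSFC1 fell in both, by 1.19 and 0.92 on the log2 scale. No member differed between the genotypes in ++Fe (1.21% of all genes called, 7 members with an unadjusted p under 0.05) or in the interaction for ++Fe (0.0244% of all genes called, 0 members with an unadjusted p under 0.05). The likelihood ratio test and quasi-likelihood test of edgeR and the Wald test of DESeq2 called no member in these 2 comparisons either. Without replicate 1 or replicate 2 of the wild-type control 4 members were called in wild-type ++Fe against the control, and 6 without replicate 2 of wild-type ++Fe. In *stop1* ++Fe against -Pi_pH5, 2 were called without replicate 1 of either condition and 1 without replicate 2 of ++Fe.

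Low Pi and low pH, alone or together, gave no call among the members by limma in either genotype. Of all genes, 0.166% were called in wild-type -Pi_pH6, 0.0293% in +Pi_pH5 and 1.44% in -Pi_pH5, and 0.998%, 0.0782% and 1.6% in *stop1* in the same media. In the wild-type, 3 members in -Pi_pH6, 2 in +Pi_pH5 and 0 in -Pi_pH5 had an unadjusted p under 0.05, and in *stop1* 7, 1 and 7 had. The quasi-likelihood test of edgeR also called none in these comparisons, whereas its likelihood ratio test called 2 in *stop1* -Pi_pH6 and 1 in *stop1* -Pi_pH5, and DESeq2 called 2 in *stop1* -Pi_pH6. HSFA2, the heat-induced factor that carries the first element shown, was highest in the control medium as labelled if the 4 libraries are set aside. It was at 4.39 and 5.65 CPM in the wild-type control, at 1.27 and 1.47 CPM in -Pi_pH6, at 1.74 and 1.25 CPM in +Pi_pH5 and at 0.752 and 3.1 CPM in -Pi_pH5. In *stop1* it was at 4.9 and 7.03 CPM in the control, at 0.452 and 0.556 CPM in -Pi_pH6, at 0.858 and 2.15 CPM in +Pi_pH5 and at 1.15 and 5.77 CPM in -Pi_pH5. The difference of *stop1* -Pi_pH6 from its control was -2.20 ± 0.55 (limma adjusted p = 0.072), and HSFA2 was called there by the DESeq2 Wald test, at -3.57 (adjusted p = 0.00044). The *stop1* order rests on labels that may be exchanged, and with both exchanged the control would be the pair at 0.858 and 2.15 CPM and the difference of -Pi_pH6 would be -0.69 (limma adjusted p = 0.73). In wild-type ++Fe it was at 1.3 and 0.71 CPM and fell by 1.59 on the log2 scale (SE 0.55, limma adjusted p = 0.047), a call lost with any 1 of the 4 libraries left out. Between genotypes, no member was called in +Pi_pH6, -Pi_pH6, +Pi_pH5 or -Pi_pH5, where 0.191%, 0.533%, 0.406% and 0.587% of all genes were called and 2, 2, 2 and 4 members had an unadjusted p under 0.05. The likelihood ratio test of edgeR and DESeq2 each called 1 member in -Pi_pH5 and none in the other 3 media, and the quasi-likelihood test called none.

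The constitutive chaperones had the highest levels of all members. Per kilobase of exon, HSC70-1, the main constitutive cytosolic HSP70, averaged 1016 CPM per kb and ranged from 773 to 1414 CPM per kb over the libraries. HSP81-2 and HSP81-3, constitutive HSP90s, averaged 221 and 193 CPM per kb, HSP70-3 averaged 129 and HSFB1 115 CPM per kb. The stress-inducible HSP70 averaged 27.3 CPM per kb and HSP21 0.66 CPM per kb. HSP81-2 and HSP81-3 share 18.9% and 24.8% of their 50-base stretches with other places in the genome, so that their separate levels are uncertain. A gene on the opposite strand overlaps 8 members, among them HSFA1B, HSFA3, HSFC1 and DREB2A, and whether the counting used the strand is not given in the sources used here. Of the 43 members, 30 were over 1 CPM in all 24 libraries, and of the 14 small HSPs 3 were.

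A second list of 24 cochaperones, organellar chaperones and heat-related genes was read from the same fits, and all 24 were in the table. Against the control, 1 was higher and 0 lower in wild-type +Al, 4 higher and 3 lower in *stop1* +Al, 2 higher and 4 lower in wild-type ++Fe, and 3 higher and 1 lower in *stop1* ++Fe, where 8.46%, 37.5%, 21.7% and 14.8% of all genes were called. DREB2B, a homologue of DREB2A, was higher in all 4 of these, and in *stop1* +Al it reached 14.6 and 11.7 CPM from 0.661 and 1.38 CPM in the control (2.82 on the log2 scale, limma adjusted p = 6.6e-07). Like DREB2A it was higher in *stop1* than in the wild-type in +Al, by 1.39 (limma adjusted p = 0.0017). GOLS1, a galactinol synthase under HSF control in Arabidopsis, was higher in ++Fe in both genotypes, by 3.14 in the wild-type with 66.4 and 24.9 CPM and by 2.95 in *stop1* with 72.8 and 57.6 CPM. The lower genes were chaperones of organelles and HSBP, a negative regulator of HSFs. HSP60 of mitochondria fell by 0.51 in wild-type ++Fe and by 0.52 in *stop1* +Al, mtHSC70-1 fell by 0.60 in wild-type ++Fe, and HSBP fell by 0.84 in *stop1* +Al, all on the log2 scale. In low Pi and low pH 0 of the 24 were called. None of these 24 genes was over 2-fold higher in the same library of all 4 pairs on the log2(CPM + 1) scale. APX2, a heat-inducible ascorbate peroxidase, was nevertheless at 0.0557 and 1.89 CPM in wild-type +Al, at 0.0479 and 1.89 CPM in *stop1* -Pi_pH5 and at 0.0459 and 0.874 CPM in *stop1* +Al, and at 0.0871 and 0.056 CPM in *stop1* ++Fe.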

How the data were processed

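Strand-specific mRNA libraries from root tips were sequenced in pairs of reads. According to the methods and the submitters' processing notes, the authors aligned reads to TAIR10 with HISAT2 2.1.0, counted them per gene with HTSeq 0.11.2 and normalized them with edgeR 3.28.0. The values as deposited by the authors are a normalized signal, namely CPM with TMM factors. Dividing by the value of 1 read gave whole reads for 100% of values within 0.001. All 24 columns were assigned to samples by title, and 0 columns of values were left unused. Every gene of the table had a CPM over 1, before TMM scaling, in at least 2 libraries.

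Differences were fitted with limma 3.58.1 (R 4.3.3; trend across levels) on log2(CPM + 1), with 1 coefficient for each of 12 conditions over 24 libraries. Benjamini-Hochberg adjustment ran over 20450 genes, and calls were made at 0.05. The script was tested on simulated data. Alternatives were a pseudocount of 0.1, a mean CPM of at least 1, other scalings, the compared libraries alone, the replicate number as a block, each library left out, exchanged labels, and, on the recovered read counts, edgeR 4.0.16 (2 tests, quasi-likelihood and likelihood ratio) and the Wald test of DESeq2 1.42.0. Gene starts and exon lengths came from RefSeq TAIR10.1, and sequences were read from its genome.

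The members and gene lists were chosen with earlier results of these data known, including that the wild-type +Al libraries differ in small HSPs. Values per library are given for members called in +Al, ++Fe, genotype or interaction comparisons (at most 4 per role and comparison), for the 6 with the largest gap between the wild-type +Al libraries, and for those that the study discusses in relation to heat shock. HSP70B, HSP90.1, HSP101, HSFA2 and the other genes given with values were added after their values were seen. With 2 libraries per condition no single comparison allows an exact permutation test to reach 0.05, and the fit across genes was used.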

Additional observations from a re-analysis of the deposited data

Results flagged for a closer look

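HSFA4A was the member whose response to AlCl3 over -Pi_pH5 differed between the genotypes by the interaction term, with a difference of 1.04 on the log2 scale (SE 0.28, limma adjusted p = 0.035, n = 2 libraries per condition). Its levels were 9.97 and 10.2 CPM in wild-type -Pi_pH5, 8.7 and 16.1 CPM in wild-type +Al, 9.77 and 13.2 CPM in *stop1* -Pi_pH5 and 29.3 and 27.6 CPM in *stop1* +Al. The estimate was 1.01 with an adjusted p of 0.058 by the quasi-likelihood test of edgeR, and its adjusted p was 0.16 when limma was fitted to the compared libraries alone. It ranged from 0.63 without replicate 1 of wild-type +Al (limma adjusted p = 0.18) to 1.45 without replicate 2 (limma adjusted p = 0.00066), and was not called in 6 of the 8 fits that left out 1 library. Replicate 2 of wild-type +Al is among the libraries with high small HSPs, and the part of that in the difference was not tested.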

How the results depend on the processing

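No direction reversed. Of 77 calls of members, 1154 values were computed under the alternatives, of which 973 stayed past the threshold and 181 did not. With the compared libraries alone, the calls were 0 for wild-type +Al against the control, 0 for wild-type +Al against -Pi_pH5, 1 for *stop1* against wild-type in +Al, 0 for the interaction in +Al, and 1 for *stop1* -Pi_pH6 against the control. By the likelihood ratio test of edgeR wild-type +Al against the control had 11 calls, 5 of them small HSPs, and by DESeq2 10, 4 of them small HSPs, where limma had 5. The likelihood ratio test called 2 members in *stop1* -Pi_pH6 and 1 in *stop1* -Pi_pH5 against the control, and 1 between genotypes in -Pi_pH5, where DESeq2 also called 1. DESeq2 called 2 in *stop1* -Pi_pH6 and a pseudocount of 0.1 gave 1, where limma had 0. The quasi-likelihood test called 0 in the interaction in +Al. Without the 4 libraries, wild-type +Al had 2 calls against the control and 1 against -Pi_pH5, and the interaction had 5; with wild-type -Pi_pH5 replicate 2 also left out these were 1, 1 and 3. The calls without the 4 libraries include a small HSP in the interaction, in *stop1* against wild-type in +Al and in *stop1* +Al against -Pi_pH5. Since these libraries were picked by the small HSPs, such calls follow in part from the choice. The cause of the shifts was not tested. With the labels of *stop1* +Pi_pH6 and +Pi_pH5 exchanged, 16 members were called in *stop1* +Al and 12 in *stop1* ++Fe against the control.

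With single libraries left out there were 1 to 16 calls for wild-type +Al against the control and against -Pi_pH5, 4 to 7 and 4 to 8 for wild-type ++Fe against the control (10 with all libraries) and -Pi_pH5, 10 to 13 and 10 to 14 for *stop1* +Al, 7 to 10 and 1 to 5 for *stop1* ++Fe, 3 to 9 for *stop1* against wild-type in +Al, and 0 to 4 for the interaction in +Al. It gave 0 to 1 for *stop1* -Pi_pH5 against the control and for the genotypes in -Pi_pH6, and 0 to 0 in the other comparisons without calls.

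With the replicate number as a block, 8 members were called in wild-type +Al against the control, and 2 in each of *stop1* -Pi_pH6 and *stop1* -Pi_pH5 against the control. Whether the numbers pair the samples is not given in the sources used here. The correlations of same-numbered deviations over 66 pairs of conditions ran from -0.38 to 0.50 with a median of 0.12, and 37 exceeded 0.1. The main fit used no pairing. At 1 read per 0.0326 to 0.0572 CPM, levels of the low small HSPs in the quiet libraries rest on a few reads.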
